A study of Mus musculus with 6 samples.

Results

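The genes described here are 43 mouse genes of DNA replication and S phase, taken by symbol from a deposited table of 56691 genes. They cover origin licensing, the replicative helicase and its activation, the polymerases and primase, the sliding clamp and Okazaki fragment maturation, chromatin assembly behind the fork, nucleotide supply, and regulators of S phase entry. All 43 were found in the table, and all 43 passed the filter on low counts that left 15987 genes for testing. Poly(A) RNA was sequenced from primary hepatic stellate cells, liver pericytes that store vitamin A and become scar-forming myofibroblasts when activated. The cells came from wild-type (WT) mouse liver, and the libraries fell into 3 groups of 2. The first group received K-80003, a compound, along with TGF-beta (labelled TGF-beta-K-80003, called K-80003 cells here), the second received TGF-beta alone (TGF-beta cells), and the last was the untreated Control. No group received K-80003 alone, so every K-80003 value here was measured in the presence of TGF-beta. Doses, treatment times and the age of the mice are not given in the sources used here, and nothing says whether the 2 libraries of a group came from separate animals or cultures.

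Replication is prepared when the origin recognition complex, with Cdc6 and Cdt1, loads the ring-shaped MCM2-7 helicase onto DNA. At S phase entry cyclin E with its kinase and E2F transcription factors promote the switch to active forks, where Cdc45 and the GINS complex join MCM2-7 to form the unwinding CMG helicase. Many of these genes are classical E2F targets, and quiescent cells hold little of their RNA. Stellate cells divide little in healthy liver and re-enter the cell cycle on activation, in culture as well as in injured liver.

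The promoters of members are shown first, because E2F factors are known regulators of this set in mammalian cells. The RefSeq promoter table, on build GRCm38.p6, gave the 250 bases before and 50 bases after the annotated start for 35 of the 43 members. The E2F site was searched as TTTCCCGC, TTTCGCGC, TTTGCCGC or TTTGGCGC on both strands, where it reads GCGGGAAA, GCGCGAAA, GCGGCAAA or GCGCCAAA on the other strand, and overlapping matches were counted separately. At least 1 match was present for 14 of the 35 members (40%), against 704 of 27025 genes in the whole table (2.6%). The 6 stretches below, all upstream of the start and printed 5′ to 3′ on the gene's own strand, belong to Uhrf1, Mcm5 and Cdc6, among the steepest falls described below, to 2 further helicase subunits and to the polymerase gene Pola1. Capitals mark the E2F matches. Their GRCm38.p6 positions are chr17:56304088-56304175 (plus strand) for Uhrf1, chr8:75109316-75109407 (plus) for Mcm5, chr11:98907973-98908060 (plus) for Cdc6, chr1:128359706-128359855 (minus) for Mcm6, chr5:138172001-138172088 (minus) for Mcm7 and chrX:93632246-93632333 (minus) for Pola1.
Uhrf1: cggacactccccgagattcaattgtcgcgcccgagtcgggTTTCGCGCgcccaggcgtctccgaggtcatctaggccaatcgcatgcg
Mcm5: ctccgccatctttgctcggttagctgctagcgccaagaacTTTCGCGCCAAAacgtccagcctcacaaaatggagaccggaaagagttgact
Cdc6: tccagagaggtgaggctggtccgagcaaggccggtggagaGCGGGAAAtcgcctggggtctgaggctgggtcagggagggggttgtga
Mcm6: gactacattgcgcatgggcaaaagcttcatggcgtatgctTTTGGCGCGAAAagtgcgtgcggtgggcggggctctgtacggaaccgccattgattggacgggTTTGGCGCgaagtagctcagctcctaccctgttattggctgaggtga
Mcm7: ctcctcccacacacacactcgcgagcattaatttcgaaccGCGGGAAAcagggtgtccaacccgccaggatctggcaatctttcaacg
Pola1: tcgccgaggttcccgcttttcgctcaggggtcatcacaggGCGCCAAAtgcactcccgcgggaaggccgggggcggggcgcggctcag

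In Mcm5 and Mcm6 a pair of matches on opposite strands shares its central bases, and Mcm6 has another match nearer the start. By role, a match was present for 4 of 5 MCM2-7 genes with a promoter entry, 3 of 4 licensing genes and 0 of 5 nucleotide supply genes. The CCAAT box, searched as CCAAT on both strands, matched in 60% of the members and 41.1% of all genes. Median GC content was 60% for the members' promoters and 52.7% for all promoters in the table, so the members also differ from the table in base composition. These matches describe letters in a window and are no evidence of binding.

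Library totals ran from 15646093 to 19004144 counts, and mitochondrial genes took between 1.16% and 1.73% of counts. Members held between 10 and 7972 counts per library, and 39 of the 43 had at least 50 counts in every library. All levels below are CPM (read counts relative to TMM-scaled library totals) unless FPKM, which is per length and library total, is named, and fold changes are log2. A gene was called when edgeR's quasi-likelihood test gave an adjusted p under 0.05 over all 15987 genes. Summed over the 43 members, the level was 732 and 766 CPM in K-80003 cells, 1603 and 1492 CPM in TGF-beta cells and 1623 and 1772 CPM in Control cells. The K-80003 libraries stood below all 4 others, and the ranges of TGF-beta and Control cells did not overlap but lay close together. In bulk RNA, fewer cells in S phase and less RNA per cell cannot be told apart.

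**Figure D1:**
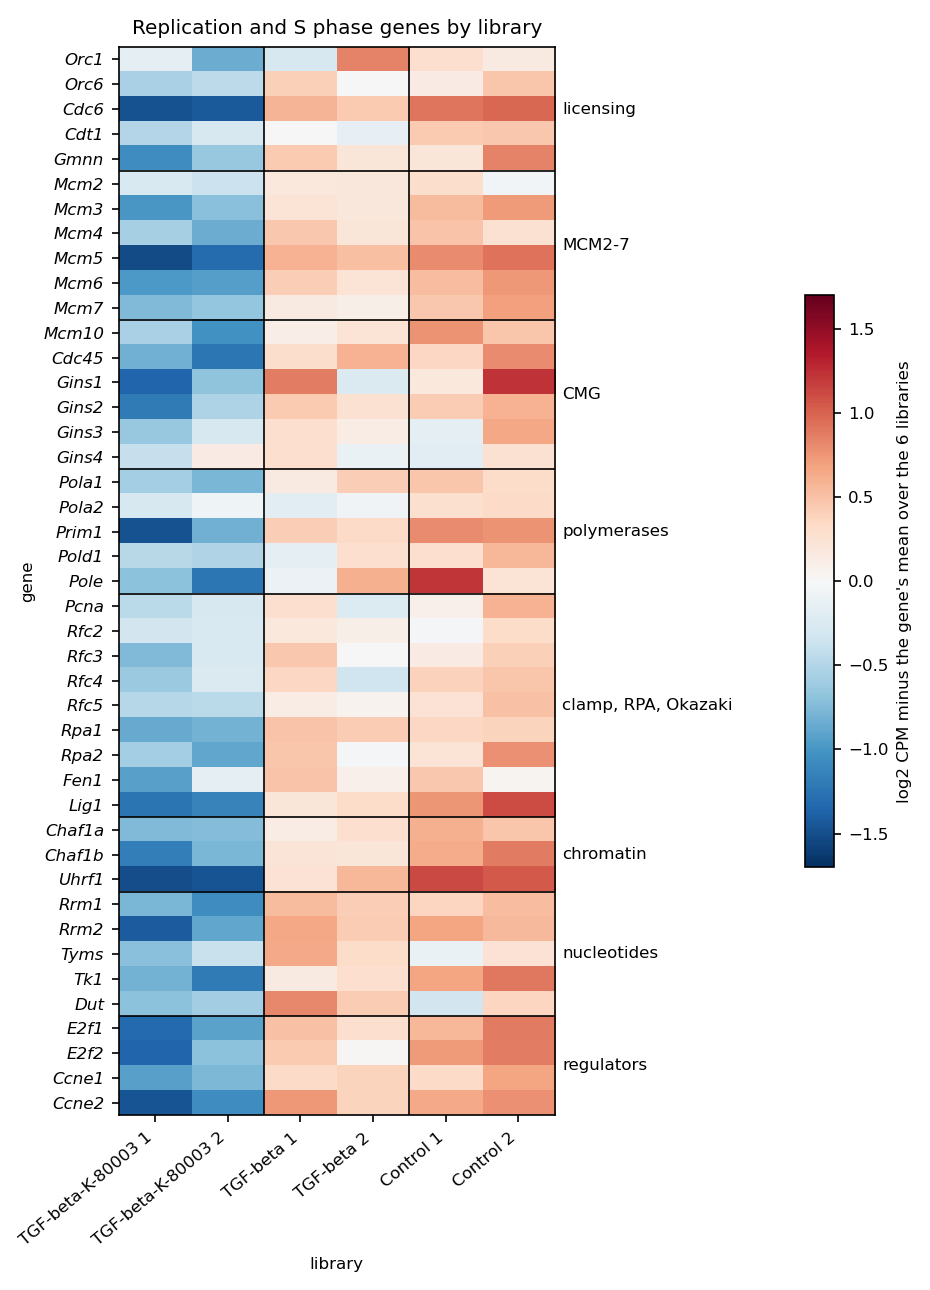
Level of the 43 members in each of the 6 libraries, as log2 CPM minus the gene's mean over the libraries, with genes ordered by role. Most cells of the map are blue (below the gene's mean) in both K-80003 libraries and red in the TGF-beta and Control libraries; Gins4, Pola2 and Mcm2 show little contrast.

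The first comparison asked what K-80003 changed in cells that also received TGF-beta. In K-80003 cells 24 of the 43 members fell and 0 rose against TGF-beta cells (35 lower and 0 higher at an unadjusted p under 0.05, 27 and 0 by DESeq2), while 7.32% of all genes tested were called lower and 2.78% higher. The fold changes of all 43 were below 0, with a median of -1.06 and a range of -1.97 to -0.04, beside a median of 0.01 over all genes; that of Pola2 turned to 0.05 in limma on log2(FPKM + 1). A log2 fold change of -1 or less was found for 24 of the 43 (55.8%), against 9.36% of all genes. The steepest falls were those of the licensing factor Cdc6, the helicase subunit Mcm5, the chromatin factor Uhrf1 and cyclin E2 (Ccne2). These members were chosen with earlier results of the same data known, so the count describes the set and is not independent evidence of its direction. Cdc6, Mcm5, Uhrf1, Ccne2 and Rrm2 were called with each of the 6 libraries left out in turn. The other 19 lost the call in at least 1 such fit: 18 without K-80003 replicate 1 (6 members still called), 17 without K-80003 replicate 2 (7 called), 12 without TGF-beta replicate 1 (12 called), 9 without TGF-beta replicate 2 (15 called) and 1, Gins2, without Control replicate 2.

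The second comparison set K-80003 cells against untreated Control cells. Here 30 of the 43 members fell and 0 rose (40 lower and 0 higher at an unadjusted p under 0.05, 31 and 0 by DESeq2), beside 11.7% of all genes called lower and 5.54% higher. The median was -1.28, with a range of -2.56 to -0.15, and the median over all genes was 0.02. A log2 fold change of -1 or less was found for 27 members (62.8%), against 13.1% of all genes. Both comparisons use the same K-80003 libraries, so their counts are not independent of each other. Against Control, 16 members were called with every library left out in turn: Ccne2, Cdc6, Chaf1a, Chaf1b, E2f1, Lig1, Mcm3, Mcm5, Mcm6, Mcm7, Prim1, Rpa1, Rrm1, Rrm2, Tk1 and Uhrf1. The members called numbered 18 and 17 without K-80003 replicates 1 and 2, and 22 without Control replicate 2.

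**Figure D2:**
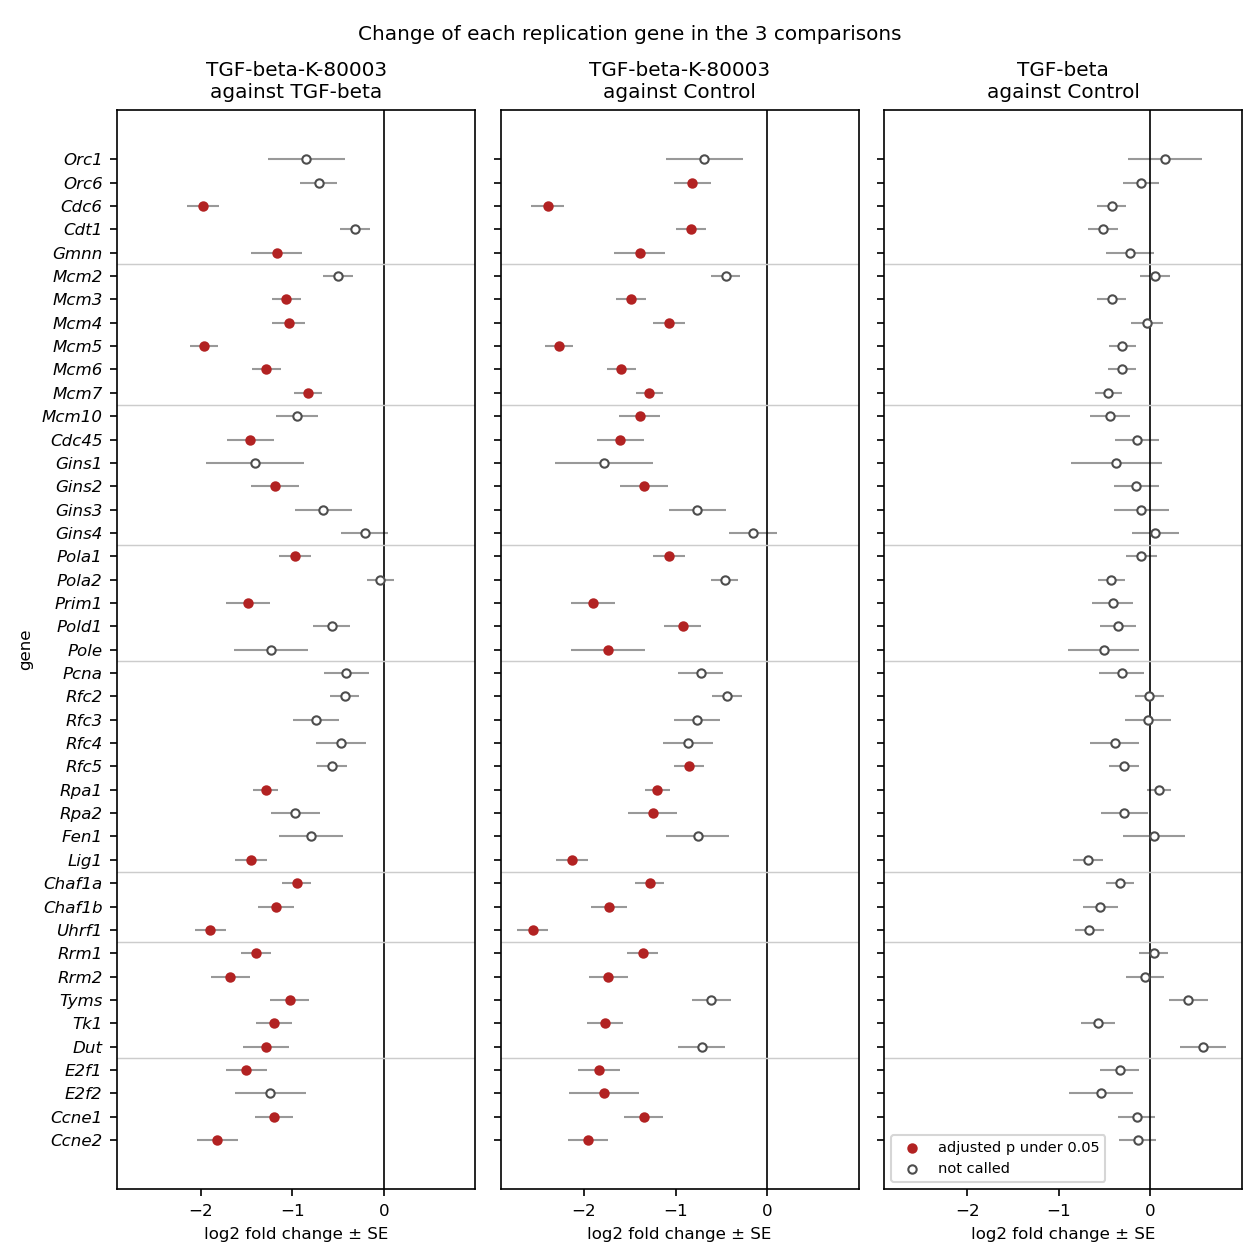
Log2 fold change (point) and its SE (bar) of each member in the 3 comparisons, with filled points for an adjusted p under 0.05 in edgeR. All points of both K-80003 comparisons lie left of 0, with 24 and 30 filled, while none is filled for TGF-beta against Control.

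Licensing genes differed widely among themselves. Cdc6 (ENSMUSG00000017499, GRCm39 chromosome 11, 98798627 to 98814766, plus strand), the ATPase that helps load MCM2-7, stood at 2.83 and 2.93 CPM in K-80003 cells, 11.8 and 10.8 CPM in TGF-beta cells and 14.8 and 15.6 CPM in Control cells. Its K-80003 libraries lay far below all others, and TGF-beta cells also lay below Control without overlap. The change was -1.97 (SE 0.18, edgeR adjusted p = 0.00168) against TGF-beta, a 3.92-fold lower level, and -2.40 (SE 0.18, edgeR adjusted p = 0.000628) against Control. Gmnn encodes geminin, the inhibitor of Cdt1, and had 4.61 and 6.15 CPM in K-80003 cells, 13.1 and 11.1 CPM in TGF-beta cells and 11.0 and 17.1 CPM in Control cells. Its log2 fold change was -1.17 (SE 0.28, edgeR adjusted p = 0.0479) against TGF-beta, close to the threshold, and -1.39 (SE 0.28, edgeR adjusted p = 0.0185) against Control. Cdt1, which brings the helicase to origins, had 9.28 and 10.8 CPM in K-80003 cells, 13.1 and 11.8 CPM in TGF-beta cells and 17.8 and 17.9 CPM in Control cells. Its libraries did not overlap between any of the groups, but only the change against Control, -0.83 (SE 0.16, edgeR adjusted p = 0.0181), passed the test, and that against TGF-beta was -0.31 (SE 0.16, edgeR adjusted p = 0.335). Of the origin recognition subunits, Orc6 was called lower against Control (-0.81, edgeR adjusted p = 0.0396) and not against TGF-beta (-0.71). Orc1 passed neither test, with fold changes of -0.85 and -0.69 and TGF-beta libraries as far apart as 3.22 and 6.97 CPM.

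Of the 6 subunits of the MCM2-7 ring, 5 fell in both K-80003 comparisons. Mcm5 (ENSMUSG00000005410, GRCm39 chromosome 8, 75836197 to 75855067, plus strand) had 8.59 and 9.96 CPM in K-80003 cells, 37.2 and 35.3 CPM in TGF-beta cells and 43.0 and 46.7 CPM in Control cells. The K-80003 libraries lay below the others with a wide gap, a change of -1.97 (SE 0.15, edgeR adjusted p = 0.00119) against TGF-beta and -2.27 (SE 0.15, edgeR adjusted p = 0.000464) against Control. Mcm6 had 27.4 and 28.4 CPM in K-80003 cells, 72.2 and 63.4 CPM in TGF-beta cells and 78.1 and 90.0 CPM in Control cells. It fell by 1.28 (SE 0.15, edgeR adjusted p = 0.00451) on the log2 scale against TGF-beta and by 1.59 (SE 0.16, edgeR adjusted p = 0.00152) against Control, again with no overlap of K-80003 libraries with others. Mcm3 had 22.7 and 27.7 CPM in K-80003 cells, 53.4 and 51.9 CPM in TGF-beta cells and 66.0 and 75.0 CPM in Control cells. Its changes were -1.06 (SE 0.16, edgeR adjusted p = 0.0102) and -1.48 (SE 0.16, edgeR adjusted p = 0.00213). Mcm4 changed by -1.04 against TGF-beta and -1.07 against Control, and Mcm7 by -0.83 and -1.28, all called. Mcm7 had 27.7 and 29.5 CPM in K-80003 cells, 51.6 and 49.8 CPM in TGF-beta cells and 63.7 and 75.7 CPM in Control cells.

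Mcm2 was the exception among the ring subunits. It had 39.7 and 37.0 CPM in K-80003 cells, 54.1 and 54.4 CPM in TGF-beta cells and 58.6 and 46.4 CPM in Control cells, a change of -0.50 (SE 0.16, edgeR adjusted p = 0.120) against TGF-beta and -0.45 (SE 0.16, edgeR adjusted p = 0.114) against Control. The K-80003 libraries were lower than the others without overlap, yet neither test passed. Levels per length were set side by side for the subunits of the ring. In mean FPKM (± SD, n = 2), Mcm5 stood at 2.38 ± 0.304 in K-80003 cells, 8.62 ± 0.530 in TGF-beta cells and 11.6 ± 0.834 in Control cells. Mcm2 stood at 5.62 ± 0.156, 7.39 ± 0.141 and 7.77 ± 1.17 FPKM in the same groups. Mcm5 was therefore the least abundant subunit RNA in K-80003 cells, and Mcm2 the least abundant in TGF-beta and Control cells. In both K-80003 libraries Mcm5 was below Mcm2, and in the other 4 libraries it was above. Mcm4 had the highest mean of the ring in each group, at 9.88 FPKM in K-80003 cells, 18.9 FPKM in TGF-beta cells and 21.0 FPKM in Control cells.

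Among the genes that turn the loaded ring into the active CMG helicase, fewer passed the test. Cdc45, the factor that joins MCM2-7 at firing origins, had 4.14 and 3.11 CPM in K-80003 cells, 8.99 and 11.0 CPM in TGF-beta cells and 9.33 and 12.7 CPM in Control cells. K-80003 cells were lower without overlap, with changes of -1.46 (SE 0.26, edgeR adjusted p = 0.0179) against TGF-beta and -1.60 (SE 0.26, edgeR adjusted p = 0.00875) against Control. Gins2 had 3.20 and 5.10 CPM in K-80003 cells, 10.1 and 8.82 CPM in TGF-beta cells and 9.90 and 11.1 CPM in Control cells. Its changes were -1.19 (SE 0.26, edgeR adjusted p = 0.0363) and -1.34 (SE 0.26, edgeR adjusted p = 0.0167). Mcm10, a fork protein needed for origin firing, had 5.87 and 4.22 CPM in K-80003 cells, 9.33 and 10.2 CPM in TGF-beta cells and 14.6 and 12.0 CPM in Control cells, all K-80003 values below the rest. It was called against Control (-1.39 (SE 0.23, edgeR adjusted p = 0.00904)) and just missed the threshold against TGF-beta (-0.95 (SE 0.23, edgeR adjusted p = 0.0502)).

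The other GINS subunits varied. Gins1 had large fold changes of -1.41 and -1.78 but few counts and replicates far apart (1.15 and 1.82 CPM in K-80003 cells, 5.37 and 2.47 CPM in TGF-beta cells and 3.32 and 6.83 CPM in Control cells), and it was not called. Gins3 changed by -0.66 and -0.76, also not called. Gins4 had 17.0 and 24.6 CPM in K-80003 cells, 27.3 and 20.7 CPM in TGF-beta cells and 19.5 and 26.7 CPM in Control cells, with overlapping ranges in all groups. Its fold changes were -0.21 (SE 0.26, edgeR adjusted p = 0.721) against TGF-beta and -0.15 (SE 0.26, edgeR adjusted p = 0.760) against Control, and their sign turned in fits without single libraries. In mean FPKM, Gins4 stood at 15.8, 16.9 and 17.7 in K-80003, TGF-beta and Control cells, above the Gins1, Gins2 and Gins3 means, which lay between 1.00 and 3.46 FPKM over the groups.

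**Figure D3:**
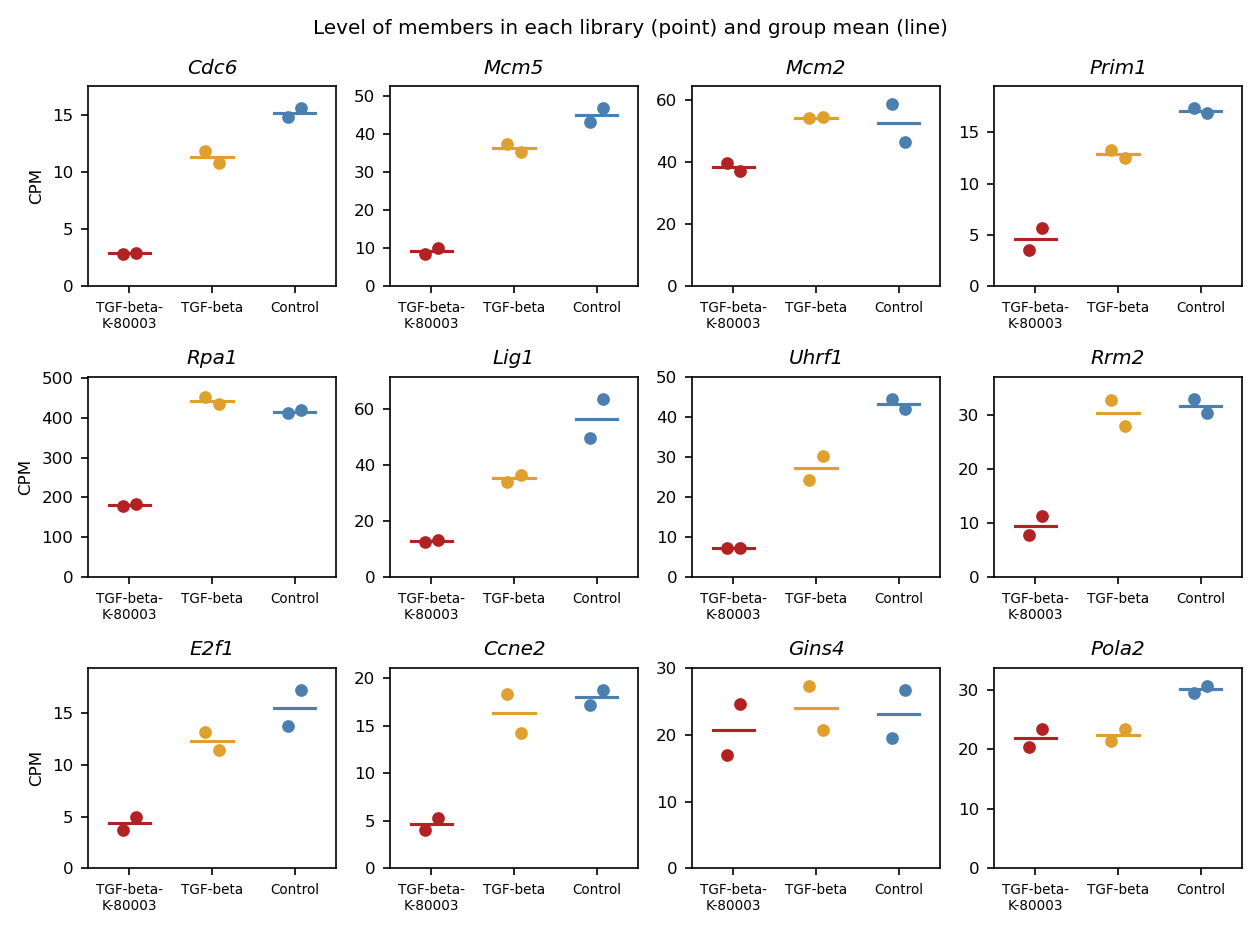
CPM (linear axis from 0) of 12 members in each library (points) with group means (lines), for K-80003, TGF-beta and Control cells. Cdc6, Mcm5, Prim1, Rpa1, Lig1, Uhrf1, Rrm2, E2f1 and Ccne2 lie lower in both K-80003 libraries with a clear gap, Mcm2 shows a small gap, Gins4 overlaps between all groups, and Pola2 overlaps between K-80003 and TGF-beta cells.

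Polymerase alpha with its primase starts every new strand. Prim1, the catalytic primase subunit (ENSMUSG00000025395, GRCm39 chromosome 10, 127851037 to 127865906, plus strand), had 3.56 and 5.63 CPM in K-80003 cells, 13.2 and 12.5 CPM in TGF-beta cells and 17.4 and 16.8 CPM in Control cells. It fell without overlap, with log2 fold changes of -1.49 (SE 0.24, edgeR adjusted p = 0.0126) against TGF-beta and -1.90 (SE 0.24, edgeR adjusted p = 0.00348) against Control. Pola1, the catalytic subunit of polymerase alpha, had 12.9 and 11.2 CPM in K-80003 cells, 21.4 and 25.8 CPM in TGF-beta cells and 26.7 and 23.9 CPM in Control cells. Its changes were -0.97 (SE 0.17, edgeR adjusted p = 0.0178) and -1.07 (SE 0.17, edgeR adjusted p = 0.00870). The accessory subunit Pola2 of the same enzyme had 20.3 and 23.4 CPM in K-80003 cells, 21.4 and 23.5 CPM in TGF-beta cells and 29.6 and 30.7 CPM in Control cells. K-80003 and TGF-beta cells overlapped for Pola2, at -0.04 (SE 0.15, edgeR adjusted p = 0.926), and both lay below Control, where the change of K-80003 cells was -0.46 (SE 0.15, edgeR adjusted p = 0.0833). Pole, the leading strand polymerase, had 9.33 and 6.45 CPM in K-80003 cells, 14.1 and 22.9 CPM in TGF-beta cells and 35.1 and 17.7 CPM in Control cells. It was called against Control (-1.74 (SE 0.41, edgeR adjusted p = 0.0317)), where the Control libraries themselves were far apart, and not against TGF-beta (-1.23 (SE 0.40, edgeR adjusted p = 0.126)). Pold1, the lagging strand polymerase, was likewise called against Control alone, at -0.92 (edgeR adjusted p = 0.0262), with -0.57 against TGF-beta.

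Genes of the clamp, its loader and strand joining had the smallest share of calls of the 8 roles, 2 of 9 against TGF-beta and 4 of 9 against Control. Lig1, the ligase that seals Okazaki fragments (ENSMUSG00000056394, GRCm39 chromosome 7, 13011239 to 13045350, plus strand), had 12.4 and 13.4 CPM in K-80003 cells, 34.0 and 36.5 CPM in TGF-beta cells and 49.6 and 63.6 CPM in Control cells. The groups formed 3 separate levels, with changes of -1.45 (SE 0.17, edgeR adjusted p = 0.00436) against TGF-beta and -2.13 (SE 0.18, edgeR adjusted p = 0.000884) against Control. Rpa1, the large subunit of the single-strand binding protein (ENSMUSG00000000751, GRCm39 chromosome 11, 75188992 to 75239150, minus strand), had 178 and 183 CPM in K-80003 cells, 451 and 434 CPM in TGF-beta cells and 411 and 419 CPM in Control cells. It fell to well under the other groups, at -1.29 (SE 0.13, edgeR adjusted p = 0.00263) and -1.20 (SE 0.13, edgeR adjusted p = 0.00228). Rpa1 was also the member with the highest level per length in every group, at 33.1 FPKM in K-80003 cells, 75.2 FPKM in TGF-beta cells and 76.7 FPKM in Control cells. The median over the 43 members was 2.38 FPKM in K-80003 cells, against 5.3 FPKM in Control cells. Rpa1 therefore takes a large part of any sum of CPM over the members. Its partner Rpa2 had 8.91 and 7.21 CPM in K-80003 cells, 18.3 and 13.1 CPM in TGF-beta cells and 15.6 and 22.7 CPM in Control cells, called against Control (-1.25 (SE 0.27, edgeR adjusted p = 0.0237)) and not against TGF-beta (-0.96 (SE 0.27, edgeR adjusted p = 0.0776)).

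The clamp itself changed less. Pcna, the sliding clamp and a common marker of cycling cells, had 58.2 and 65.7 CPM in K-80003 cells, 96.6 and 67.8 CPM in TGF-beta cells and 84.4 and 120.4 CPM in Control cells. K-80003 cells were lower without overlap, but replicates within TGF-beta and Control were far apart, and neither -0.41 (SE 0.25, edgeR adjusted p = 0.400) nor -0.73 (SE 0.25, edgeR adjusted p = 0.0982) passed. A processed pseudogene, Pcna-ps2, had 157 counts over all libraries beside 8466 for Pcna. Of the clamp loader genes Rfc2, Rfc3, Rfc4 and Rfc5, only Rfc5 was called, and only against Control (-0.85, edgeR adjusted p = 0.0160). The fold changes of these 4 against TGF-beta lay between -0.74 and -0.42. Fen1, the flap nuclease, had between 32 and 79 counts per library and was not called, at -0.79 and -0.76.

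All 3 chromatin genes fell in both K-80003 comparisons. Uhrf1 (ENSMUSG00000001228, GRCm39 chromosome 17, 56610321 to 56630486, plus strand), which reads hemimethylated DNA behind the fork and recruits the maintenance methyltransferase, had 7.23 and 7.44 CPM in K-80003 cells, 24.3 and 30.3 CPM in TGF-beta cells and 44.5 and 42.1 CPM in Control cells. The 3 groups were separate, and the change was -1.89 (SE 0.17, edgeR adjusted p = 0.00168) against TGF-beta and -2.56 (SE 0.17, edgeR adjusted p = 0.000447) against Control, a 5.90-fold lower level and the largest fall of any member against Control. Chaf1b, a subunit of the histone chaperone CAF-1, had 5.61 and 7.38 CPM in K-80003 cells, 14.8 and 14.6 CPM in TGF-beta cells and 19.5 and 23.4 CPM in Control cells. Its changes were -1.18 (SE 0.20, edgeR adjusted p = 0.0152) and -1.72 (SE 0.20, edgeR adjusted p = 0.00256). The large CAF-1 subunit Chaf1a had 8.86 and 8.91 CPM in K-80003 cells, 16.2 and 18.1 CPM in TGF-beta cells and 22.7 and 20.6 CPM in Control cells, with changes of -0.95 (SE 0.16, edgeR adjusted p = 0.0133) and -1.28 (SE 0.16, edgeR adjusted p = 0.00304). For both CAF-1 genes the call against TGF-beta was lost in each fit that left out 1 K-80003 or TGF-beta library, while that against Control held with every library left out.

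All 5 genes of nucleotide supply fell against TGF-beta, and 3 of them against Control. Rrm2 (ENSMUSG00000020649, GRCm39 chromosome 12, 24758240 to 24764145, plus strand), the S phase subunit of ribonucleotide reductase, had 7.81 and 11.3 CPM in K-80003 cells, 32.8 and 27.9 CPM in TGF-beta cells and 33.0 and 30.4 CPM in Control cells. TGF-beta and Control cells overlapped and K-80003 cells lay far below, at -1.67 (SE 0.21, edgeR adjusted p = 0.00542) and -1.73 (SE 0.21, edgeR adjusted p = 0.00321). Rrm1, the large subunit, had 44.3 and 36.5 CPM in K-80003 cells, 111 and 102 CPM in TGF-beta cells and 97.9 and 109 CPM in Control cells, with changes of -1.39 (SE 0.17, edgeR adjusted p = 0.00426) and -1.36 (SE 0.17, edgeR adjusted p = 0.00308). Thymidine kinase 1 (Tk1) had 7.86 and 5.98 CPM in K-80003 cells, 15.2 and 16.6 CPM in TGF-beta cells and 21.8 and 25.6 CPM in Control cells. It changed by -1.20 (SE 0.20, edgeR adjusted p = 0.0134) against TGF-beta and by -1.77 (SE 0.20, edgeR adjusted p = 0.00225) against Control.

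The dUTPase gene Dut and the thymidylate synthase gene Tyms, which supply and guard the thymidine pool, had their highest levels in TGF-beta cells. Dut had 18.8 and 20.3 CPM in K-80003 cells, 53.8 and 41.4 CPM in TGF-beta cells and 24.7 and 39.4 CPM in Control cells, and Tyms had 13.9 and 17.4 CPM in K-80003 cells, 35.4 and 28.2 CPM in TGF-beta cells and 20.9 and 26.9 CPM in Control cells. Against TGF-beta the changes were -1.28 (SE 0.26, edgeR adjusted p = 0.0262) for Dut and -1.02 (SE 0.21, edgeR adjusted p = 0.0301) for Tyms. Against Control they were -0.71 (SE 0.25, edgeR adjusted p = 0.112) and -0.61 (SE 0.21, edgeR adjusted p = 0.105), not called, although K-80003 libraries were below both Control libraries for each gene.

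S phase regulators were called in 3 of 4 cases against TGF-beta and 4 of 4 against Control. Ccne2, cyclin E2 (ENSMUSG00000028212, GRCm39 chromosome 4, 11191351 to 11204779, plus strand), had 3.98 and 5.27 CPM in K-80003 cells, 18.3 and 14.2 CPM in TGF-beta cells and 17.2 and 18.8 CPM in Control cells. K-80003 cells lay below the overlapping ranges of the other groups, at -1.82 (SE 0.22, edgeR adjusted p = 0.00466) and -1.96 (SE 0.22, edgeR adjusted p = 0.00239). E2f1, an activating E2F factor (ENSMUSG00000027490, GRCm39 chromosome 2, 154401327 to 154411812, minus strand), had 3.72 and 4.98 CPM in K-80003 cells, 13.2 and 11.4 CPM in TGF-beta cells and 13.8 and 17.3 CPM in Control cells, with changes of -1.50 (SE 0.23, edgeR adjusted p = 0.0102) and -1.84 (SE 0.23, edgeR adjusted p = 0.00330). Cyclin E1 (Ccne1) had 3.51 and 3.93 CPM in K-80003 cells, 8.37 and 8.69 CPM in TGF-beta cells and 8.33 and 10.6 CPM in Control cells. Both K-80003 libraries were lowest, with log2 fold changes of -1.20 (SE 0.21, edgeR adjusted p = 0.0170) against TGF-beta and -1.35 (SE 0.21, edgeR adjusted p = 0.00764) against Control. E2f2 was the least abundant member, with 10 to 42 counts per library and 0.524 and 0.820 CPM in K-80003 cells, 1.81 and 1.36 CPM in TGF-beta cells and 2.19 and 2.43 CPM in Control cells. It was called against Control (-1.78 (SE 0.38, edgeR adjusted p = 0.0240)) and not against TGF-beta (-1.24 (SE 0.39, edgeR adjusted p = 0.112)).

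**Figure D4:**
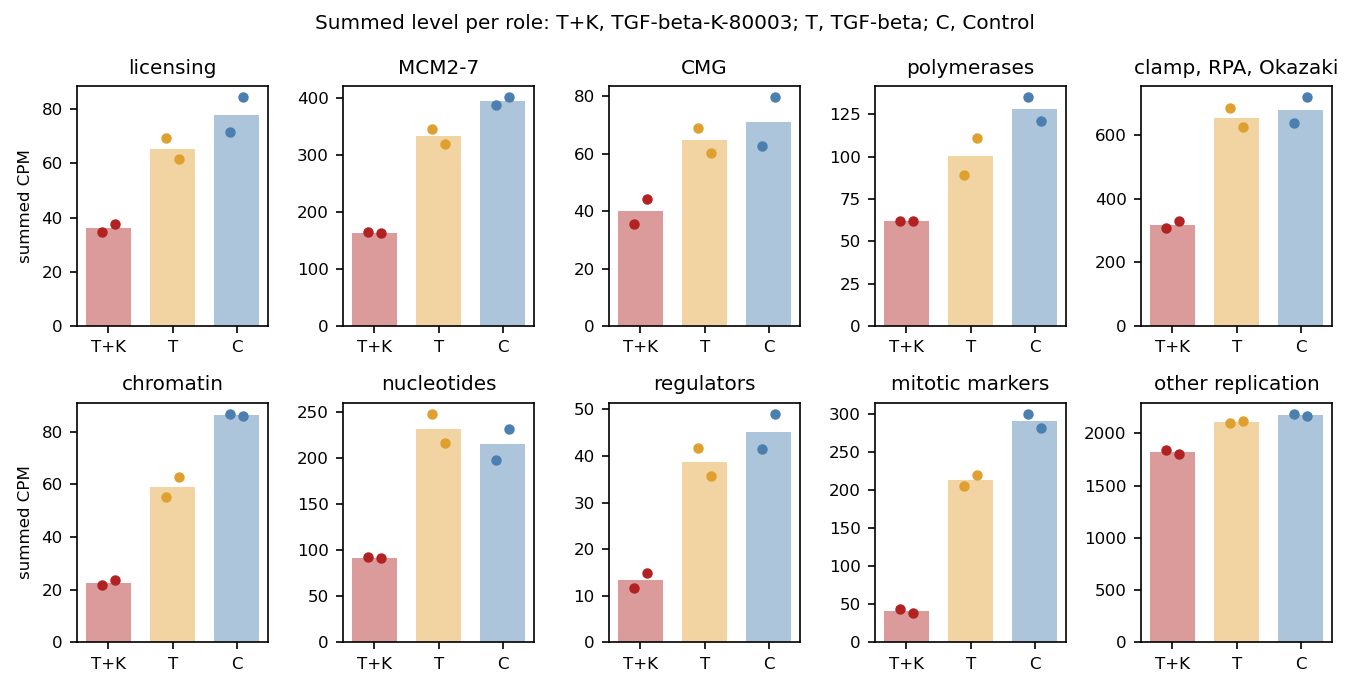
Summed CPM per role and library (points; bars are means of 2 libraries, from 0) for K-80003 (T+K), TGF-beta (T) and Control (C) cells, with 2 lists of genes that are not members. For each of the 8 roles both K-80003 libraries lie below the other 4; for MCM2-7 the sums are 164 and 164 CPM, against 346 and 320 CPM in TGF-beta cells and 388 and 401 CPM in Control cells.

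Promoter matches did not separate the members called lower against TGF-beta from those not called in that comparison. Matches were not counted by the call against Control. An E2F match was present for 8 of 20 members called lower in K-80003 cells against TGF-beta (40%) and for 6 of 15 that were not called (40%), each among those with a promoter entry. The 6 members whose sequences are printed above were taken, smallest p first, from members with full values and an upstream match. All 6 fell in both K-80003 comparisons, which this choice favoured. Gins3, Orc1 and Rfc3 also held a match and passed neither test. None of the 5 nucleotide supply genes, all lower against TGF-beta, held a match in this window.

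TGF-beta alone gave no call among these genes against Control in the fit without a replicate block or with the replicate number as a block. This comparison shares its TGF-beta libraries with the first, and its result with another block is given in the last section. By edgeR 0 of the 43 members were called, beside 1.88% of all genes called lower and 1.06% higher. Of the members, 9 had an unadjusted p under 0.05, DESeq2 called 0, limma on log2(FPKM + 1) called 0, and edgeR without the filter on low counts called 1, Lig1. The median was -0.29 with a range of -0.68 to 0.57, and 35 of the 43 were below 0. Lig1 had 34.0 and 36.5 CPM in TGF-beta cells, against 49.6 and 63.6 CPM in Control cells, a change of -0.68 (SE 0.17, edgeR adjusted p = 0.101). Uhrf1 had 24.3 and 30.3 CPM in TGF-beta cells, against 44.5 and 42.1 CPM in Control cells, a change of -0.67 (SE 0.16, edgeR adjusted p = 0.0949), the smallest adjusted p of any member. For both genes TGF-beta cells were lower without overlap, and the difference missed the threshold.

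In the other roles the members with the smallest p were Cdt1 at -0.52 (SE 0.16, edgeR adjusted p = 0.192), Mcm7 at -0.46 (SE 0.15, edgeR adjusted p = 0.206) and Mcm10 at -0.45 (SE 0.22, edgeR adjusted p = 0.443). Pola2 stood at -0.43 (SE 0.15, edgeR adjusted p = 0.243), Tk1 at -0.57 (SE 0.19, edgeR adjusted p = 0.212) and E2f1 at -0.34 (SE 0.21, edgeR adjusted p = 0.594). Dut (0.57) and Tyms (0.41) had the highest positive values, not called. A p above the threshold with 2 libraries a group does not show that the members were alike in TGF-beta and Control cells.

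**Figure D5:**
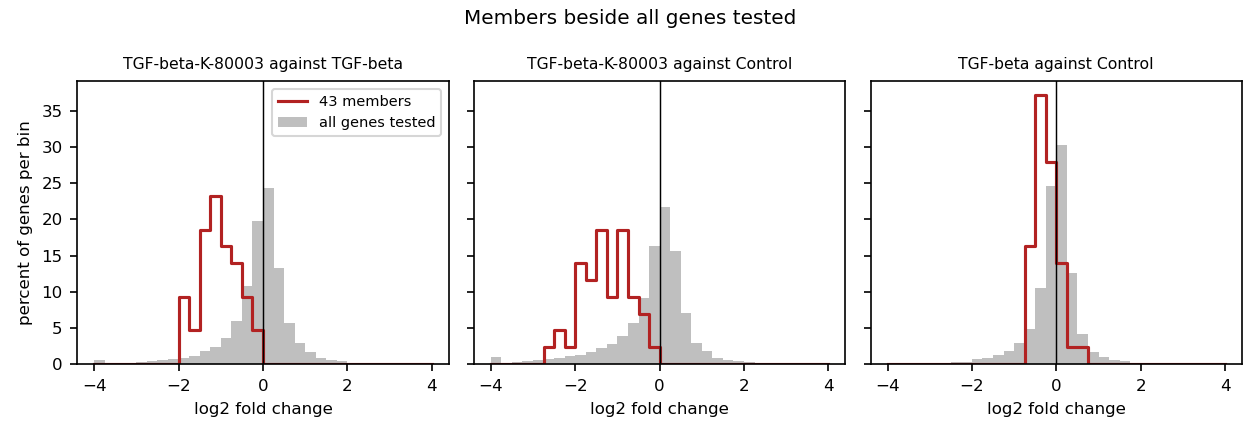
Distribution of log2 fold changes of the 43 members (red outline) and of all 15987 genes tested (grey) in the 3 comparisons, as percent of genes per bin; values beyond 4 in either direction are in the end bins. The members sit left of the bulk of all genes in both K-80003 comparisons (medians -1.06 and -1.28) and only slightly left of it for TGF-beta against Control (-0.29).

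Other genes of replication that are not members gave fewer calls. Of 61 such genes, 15 (24.6%) fell and 0 rose in K-80003 cells against TGF-beta (20 lower and 2 higher at an unadjusted p under 0.05, 15 and 0 by DESeq2). Their median log2 fold change was -0.28, and 7.32% of all genes tested were called lower and 2.78% higher. Against Control 17 (27.9%) fell and 3 rose (25 lower and 6 higher at an unadjusted p under 0.05, 19 and 2 by DESeq2), with a median of -0.27. In that comparison 11.7% of all genes tested were called lower and 5.54% higher, so the rises were not particular to this list. For TGF-beta against Control edgeR and DESeq2 called 0 of them, and 4 had an unadjusted p under 0.05. Cyclin A2 (Ccna2), which drives S phase and mitotic entry, had 4.19 and 4.16 CPM in K-80003 cells, 30.2 and 29.5 CPM in TGF-beta cells and 29.9 and 39.0 CPM in Control cells, a change of -2.84 (SE 0.19, edgeR adjusted p = 0.000727) against TGF-beta. The checkpoint mediator Clspn had 2.93 and 2.11 CPM in K-80003 cells, 14.0 and 17.0 CPM in TGF-beta cells and 21.1 and 23.7 CPM in Control cells, a change of -2.61 (SE 0.23, edgeR adjusted p = 0.00158). Both lay far below the other groups in K-80003 cells, with larger falls than any of the 43 members. The chromatin remodeller Hells, the fork protection gene Timeless and Samhd1, whose product lowers deoxynucleotide pools, fell by 1.53, 1.40 and 1.60 on the log2 scale. The repressive factors E2f7 and E2f8 fell too, by 2.75 and 2.64 against TGF-beta. The 3 that rose against Control were Pold4 (0.67), a small subunit of polymerase delta, Mtbp (0.97), a partner in origin firing, and E2f3 (0.52).

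Markers of mitosis fell with the members, while markers of cell types moved in both directions. The part of either in the values above was not tested. All 8 mitotic markers fell in both K-80003 comparisons, with medians of -2.42 against TGF-beta and -2.81 against Control, and edgeR and DESeq2 called 0 for TGF-beta against Control, where 1 had an unadjusted p under 0.05. Of 10 stellate cell markers, 7 fell against TGF-beta and 8 against Control. Their sum was 3661 and 2523 CPM in K-80003 cells, 3582 and 5458 CPM in TGF-beta cells and 6835 and 4453 CPM in Control cells, with none at 0. Reln took a large part of these sums, with replicates far apart. It had 2753 and 1690 CPM in K-80003 cells, 1294 and 2778 CPM in TGF-beta cells and 3935 and 1872 CPM in Control cells. The log2 fold change of Reln was 0.13 against TGF-beta and -0.39 against Control, neither called. Pdgfrb was not called against Control either, at -0.01. Lrat, the vitamin A esterifying enzyme that defines stellate cells, had 11.0 and 12.4 CPM in K-80003 cells, 392 and 478 CPM in TGF-beta cells and 1101 and 776 CPM in Control cells. Stellate cell markers were thus detected in all libraries, with a much lower Lrat level in K-80003 cells.

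Sinusoidal endothelial markers summed to 729 and 625 CPM in K-80003 cells, 330 and 415 CPM in TGF-beta cells and 504 and 365 CPM in Control cells. Of the 8, 3 were higher and 1 lower against TGF-beta. Against Control 4 were higher and 3 lower, with log2 fold changes from -6.98 to 1.46. Bile duct and mesothelial markers summed to 208 and 251 CPM in K-80003 cells, 312 and 254 CPM in TGF-beta cells and 819 and 1170 CPM in Control cells. All 7 of those tested were lower in K-80003 than in Control cells, and edgeR called 0 of 7 against TGF-beta cells (2 at an unadjusted p under 0.05, 1 by DESeq2). Macrophage markers summed to 24.4 and 28.8 CPM in K-80003 cells, 48.3 and 47.0 CPM in TGF-beta cells and 47.2 and 46.1 CPM in Control cells, with 1 of 6 tested lower against TGF-beta. Hepatocyte markers summed to 5.35 and 41.9 CPM in the K-80003 libraries, and to between 10.2 and 18.4 CPM in the others. The members summed to 732 and 766 CPM in those same K-80003 libraries. All 6 lymphocyte markers were at 0 in at least 1 library and summed to under 1 CPM in each.

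Within groups the members deviated together. Between replicates 1 and 2, 32 of 43 were higher in replicate 2 of K-80003 cells, 13 of 43 in replicate 2 of TGF-beta cells and 32 of 43 in replicate 2 of Control cells. The median log2 difference of replicate 1 minus replicate 2 over the members was -0.11, 0.12 and -0.18 in these groups. Over all genes tested that median was 0.026, -0.0023 and -0.0087 in K-80003, TGF-beta and Control cells. The median changes of the members in K-80003 cells were larger in size, at -1.06 against TGF-beta and -1.28 against Control. Single members could differ more between replicates, as Gins1 did, at 5.37 and 2.47 CPM in TGF-beta cells. A counted gene on the opposite strand overlaps 12 members with at least 10% of their counts: Ccne2, Cdc45, Chaf1a, Fen1, Gins2, Lig1, Mcm7, Orc1, Orc6, Rfc4, Rfc5 and Tk1. The strand setting of the counting was not stated in the labels or headers, and their values are less certain. Among the 31 other members, 17 were lower against TGF-beta and 21 against Control.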

How the data were processed

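Per the labels' protocols, libraries were made from poly(A) RNA by random priming after fragmentation, with ligated adaptors and PCR. No molecular identifiers are named, so read counts are not counts of independent molecules and intervals from them would cover counting error only. The authors deposited a single table with whole-number counts and FPKM values per library. The deposited counts were not normalized. The deposited FPKM values equalled the count divided by exonic length and by the summed count of the library, within 0.005 for 100% of values, so they carry no further scaling. The tools named in the submitters' processing notes are HISAT2 2.0.1, HTSeq 0.6.1, cutadapt 1.9.1, SAMtools 0.1.19, Cufflinks 2.2.1 and DESeq2, with no role or order, and the build is GRCm39. The strand setting is not given in the sources used here.

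Groups were taken from the labels. All 6 libraries were fitted together with edgeR 4.0.16 in R 4.3.3 (TMM scaling, filterByExpr with a minimum count of 10 and minimum total of 15, quasi-likelihood test, two-sided, Benjamini-Hochberg adjustment over 15987 genes, called at 0.05). Genes left out held 0.13% of counts. The fit had 3 residual degrees of freedom and 3.45 prior degrees of freedom. It was also run on simulated counts drawn with the same spread for all genes, which cannot show its error rates on these data. Nothing in the labels says that replicates are separate cultures or animals, so p-values weigh group differences against the spread between these samples only. They may not extend to other cultures or animals. The counts of libraries of a group differed beyond sampling noise (chi-square over degrees of freedom 20.2 or more), so none was taken for a repeat deposit of another; this does not show separate cultures.

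The members and all gene lists were chosen with earlier results of these data known. For this reason no set test and no adjustment over the list alone was made. Values in every library are given, within each role and comparison, for up to 3 called members with the largest fold change and, where none was called, the member with the smallest p; members of little change are shown for contrast and were chosen after their values were seen. Other replication genes named are up to 6 called with the smallest p per comparison, and those that rose. Alternatives were DESeq2 1.42.0, limma 3.58.1 on log2(FPKM + 1) and log2(FPKM + 0.1), median-of-ratios scaling, no filter, a replicate block and each library left out. Promoters came from the RefSeq table on GRCm38.p6, while coordinates of genes were taken from the deposited file (GRCm39, 1-based); the builds were not mixed.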

Additional observations from a re-analysis of the deposited data

How the results depend on the processing

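For K-80003 against TGF-beta cells the members called lower were 24 with median-of-ratios scaling, 27 with DESeq2, 30 without the filter, 17 with limma on log2(FPKM + 1) and 20 with a pseudocount of 0.1, and between 6 and 25 with a library left out; the genes called were 2492 without the filter and between 447 and 1681 with a library left out. Against Control the members called lower were 30, 31, 36, 28 and 29 in the same order and between 17 and 32 with a library left out, and the genes called between 974 and 2442. For TGF-beta against Control 1 member was called lower without the filter, and 0 with the other scaling, tools and pseudocounts or with any library left out; the genes called were 1143 without the filter, 846 with DESeq2 and between 66 and 194 with a library left out. In fits with a library left out, the lone library of a group is assumed to vary like the other groups. Median fold changes of the members were -0.67 (K-80003 against TGF-beta) and -0.94 (K-80003 against Control) in limma, where the pseudocount pulls low genes towards 0. With a library left out they ran from -1.20 to -1.03 and from -1.31 to -1.19 in these comparisons, and from -0.37 to -0.17 for TGF-beta against Control. In limma, which used FPKM without TMM scaling, the share of called genes that were lower was 59.8% for K-80003 against TGF-beta (72.5% in edgeR) and 77.1% for TGF-beta against Control (63.8% in edgeR), and at a pseudocount of 0.1 the median of all genes stood at 0.11 and -0.10. The sign turned for Gins4 against TGF-beta (0.016 without TGF-beta replicate 1 and a range of -0.50 to 0.035 over the libraries left out) and against Control (0.067 without Control replicate 2 and a range of -0.45 to 0.090), and for Pola2 against TGF-beta (0.047 in limma and a range of -0.14 to 0.060 with a library left out); none of these was called in any fit, and the cause was not tested. Whether replicate numbers mark shared batches is not given in the labels, and they were not used to pair the samples: over 15987 genes, the differences of replicate 1 minus replicate 2 had a correlation of -0.48 between K-80003 and TGF-beta, 0.50 between K-80003 and Control and -0.64 between TGF-beta and Control cells. With the replicate number as a block, 14, 23 and 0 members were called lower for K-80003 against TGF-beta, K-80003 against Control and TGF-beta against Control, and 792, 1564 and 40 genes were called in either direction. After the data were seen, a block that exchanged replicates 1 and 2 of TGF-beta was added (crossed block); with it the members called lower were 40, 42 and 16, with 2 called higher for TGF-beta against Control, and the genes called 5903, 7352 and 3708; whether the TGF-beta numbers are crossed cannot be told from the labels. E2f2, Fen1, Gins1 and Orc1 had under 50 counts in at least 1 library.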
